A study of Mus musculus with 22 samples.

Results

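RNA brought down by an antibody against NF90 and NF110 was measured in mouse embryonic stem cells labelled as knockouts (KO) for both proteins, so that the antibody has no intended target. The method, RNA immunoprecipitation followed by sequencing (RIP-seq), sequences the RNA that comes down with the antibody (IP) beside total RNA of the same experiment (input). The 3 IP libraries labelled NF90+NF110 KO were compared with their 3 inputs, each IP paired with the input of its own number. The genes described are those with at least 1 FPKM (a fragment density corrected for transcript length and sequencing depth) in 3 or more of these 6 libraries. There were 12260 such genes among the 22330 of the deposited table, and 11414 of them reached 1 FPKM in all 6 libraries. Another 15 genes entered only through the 3 IPs and 35 only through the 3 inputs, so that their direction was largely fixed by the choice. At the edge, the third-highest FPKM was 1.00 for Snx32, just inside, and 0.999 for Slc16a11, just outside.

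The series holds 22 libraries in 8 groups, of which 18 are RIP-seq libraries. These are 3 inputs and 3 IPs for each of the genotypes NF90+NF110 KO, NF110 KO and NF90/NF110 WT, all grown in serum with LIF, 1 µM PD0325901 (a MEK inhibitor) and 3 µM CHIR99021 (a GSK3 inhibitor). The IPs of all 3 genotypes used the same monoclonal antibody (clone 21/DRBP76) at 5 µg per ml of lysate on Protein G beads, and the last washes contained 1 M urea. The protocol also names a normal rabbit IgG; no such libraries were analysed here. The study calls the triplicates biological, but the labels do not say how the KO lines were made, whether each is 1 clone, or whether replicates came from separate cultures, so p-values measure only the spread between these libraries.

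NF90 and NF110 are double-stranded RNA-binding proteins, and both form dimers with NF45. They bind many mRNAs and noncoding RNAs in the nucleus and cytoplasm and take part in splicing, stability and translation. Some RNA always comes down in an immunoprecipitation by other routes, through contact with the beads, with the antibody or with other proteins it recognises, and a line without the target is the usual control for this.

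No protein measurement was used here, so the absence of the target rests on the label alone. Ilf2, which encodes the partner NF45, was at 81.9, 75.95 and 77.1 FPKM in inputs and 77.4, 75.3 and 82.9 in IPs, which overlapped (log2 difference 0.00, limma adjusted p = 0.968).

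The inputs labelled NF90+NF110 KO held 10.1 to 11.8 M reads assigned to genes and the IPs 14.2 to 16.3 M. The numbers of genes at 1 FPKM or more overlapped, with 12111 to 12210 in the inputs and 12020 to 12172 in the IPs. Reads of the top 10 genes made up 3.9% to 3.95% in the inputs and 4.6% to 4.8% in the IPs. All 12 embryonic stem cell markers were at 1 FPKM or more in every input, against 4 of 10 fibroblast markers, 1 of 6 primitive endoderm markers and 1 of 6 neural and mesoderm markers. Summed FPKM of the stem cell markers was 4661 to 4950 in inputs and 4601 to 4618 in IPs, and of the fibroblast markers 9.33 to 12.1 and 9.49 to 10.97. The marker sums were thus close in IP and input, although those of the stem cell markers did not overlap. Single markers shifted in either direction. Dppa5a was at 2147 to 2211 FPKM in inputs and 1636 to 1808 in IPs, and Sox2 at 145 to 213 and 245 to 316.5. The FPKM scale cannot show how much RNA came down in total.

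Most genes differed little between IP and input. The median size of the log2 difference, on the log2(FPKM + 1) scale used throughout, was 0.17, and 92.4% of the 12260 genes (11328) differed by less than 0.50. The 5th and 95th percentiles of the log2 difference were -0.46 and 0.45. They were similar from pair to pair: across genes, the log2 differences of the 3 pairs correlated at Pearson r of 0.769, 0.739 and 0.705, a description of these libraries in which genes are not independent. With limma over all 18 RIP-seq libraries, at a Benjamini-Hochberg adjusted p under 0.05, 2957 of the 12260 genes were higher in the IP and 2637 lower, and 6666 were not called. Over all 12693 genes tested, 23.4% were called higher and 21.1% lower. Of the 5594 called genes, 4688 differed by less than 0.50. Past 2-fold on this scale were 58 genes higher and 36 lower, against 0.457% and 0.291% of the genes tested. Without the term that pairs IP and input, limma called 2433 of all tested genes in place of 5655.

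**Figure D1:**
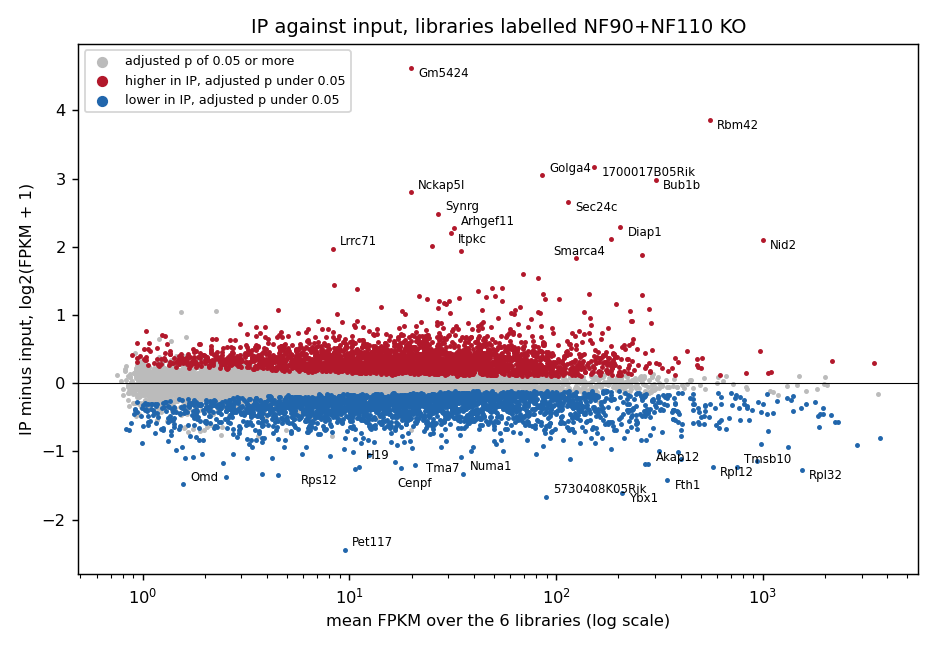
Each point is 1 of the 12260 genes, with its mean FPKM over the 6 libraries labelled NF90+NF110 KO (log scale) against the log2(FPKM + 1) difference of IP minus input from limma. Most points lie between -0.46 and 0.45, while a few abundant RNAs such as Rbm42, at 3.87, stand well above the rest.

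Rbm42 (chromosome 7, 30640995 to 30650228 on GRCm38), which encodes an RNA-binding protein with an RNA recognition motif, had the largest difference by the naming rule. It was at 73.97, 59.9 and 77.5 FPKM in the inputs and 1144, 953 and 1013 in the IPs, a ratio of mean FPKM of 14.7 (log2 difference 3.87, SE 0.13, limma adjusted p = 6.12e-08). All 3 IPs were above every input by more than 10 times. With 75609 reads over the 6 libraries, the value does not rest on thin counts.

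Golga4, Bub1b and Sec24c followed. Golga4 (chromosome 9, 118506196 to 118582519), a coiled-coil golgin of the trans-Golgi, rose from 19.3, 15.8 and 18.2 to 165, 149 and 147 FPKM (log2 difference 3.05, SE 0.08, limma adjusted p = 1.36e-10). Bub1b (chromosome 2, 118598202 to 118641592), the spindle checkpoint protein BubR1, rose from 65.3, 66.5 and 71 to 557, 510.3 and 558 (2.98, SE 0.11, limma adjusted p = 2.11e-08). Sec24c (chromosome 14, 20674285 to 20694852), a cargo adaptor of COPII vesicles, rose from 26.9, 36.4 and 29.5 to 191, 217 and 188 (2.65, SE 0.07, limma adjusted p = 1.36e-10). For each of these genes the lowest IP was several times the highest input.

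Less abundant RNAs behaved the same way. Nckap5l, which encodes a centrosomal protein, was at 3.799, 5.42 and 3.503 FPKM in inputs and 31.2, 43.8 and 31.4 in IPs (log2 difference 2.8, SE 0.14). Synrg, a partner of the clathrin adaptor AP-1, was at 7.61, 6.85 and 7.84 and 52.7, 40.2 and 46.04 (2.48, SE 0.07). Itpkc, an inositol trisphosphate kinase, was at 9.85, 9.96 and 11.3 and 59.97, 42.6 and 52.1 (2.2, SE 0.12). The IPs and inputs of these 3 genes were far apart, and limma adjusted p-values were 1.02e-07, 1.36e-10 and 2.7e-07.

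Diap1 (RefSeq symbol Diaph1), a formin that assembles actin filaments, rose from 72.1, 61.8 and 71.1 to 377, 286 and 357 FPKM (log2 difference 2.29, limma adjusted p = 5.15e-10). Arhgef11, an activator of small GTPases, rose from 10.1, 10.04 and 10.7 to 55.9, 45.3 and 60.3 (2.27, limma adjusted p = 1.33e-07). Lrrc71, at 1.97, overlaps Arhgef11 on chromosome 3 and drew only 19 reads over the 6 libraries, so its FPKM of 2.46, 2.803 and 3.07 in inputs and 14.1, 11.97 and 15.6 in IPs cannot be told from that of its neighbour. Smarca4, the BRG1 ATPase of the BAF chromatin remodelling complexes, rose from 69.2, 62.4 and 72.8 to 338, 249 and 314 (2.12, limma adjusted p = 1.76e-08). Nid2 (chromosome 14, 19751257 to 19811787), the basement membrane protein nidogen-2, was the most abundant of the group, at 378, 387 and 368 FPKM in inputs and 1693, 1594 and 1583 in IPs (2.1, limma adjusted p = 1.47e-09).

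Unnamed or pseudogene loci were outside the naming rule, and 4 genes are given here that were chosen after their values were seen. 1700017B05Rik, a protein-coding gene of chromosome 9 known only by its clone name, rose from 31.2, 24.6 and 32.98 to 309, 219 and 299 FPKM (log2 difference 3.17, SE 0.10, limma adjusted p = 4.45e-09). The transcribed pseudogene Gm5424 had the largest value of all (4.62, SE 1.21, limma adjusted p = 0.0219), at 0.00487, 0.014 and 2.74 FPKM in inputs and 38.02, 51.8 and 26.6 in IPs. The read table gave Gm5424 0 reads in all 6 libraries, so it has a value only in the FPKM table. In the other direction, the noncoding RNA 5730408K05Rik fell from 139, 135 and 133 to 39.2, 46.8 and 40.9 (-1.66, limma adjusted p = 5.78e-08), while Pet117 (-2.44, SE 0.68, limma adjusted p = 0.0265) also had 0 reads, overlaps Kat14, and ran from 18.7, 9.09 and 13.1 in inputs to 16.02, 0.0187 and 0 in IPs, which overlapped.

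**Figure D2:**
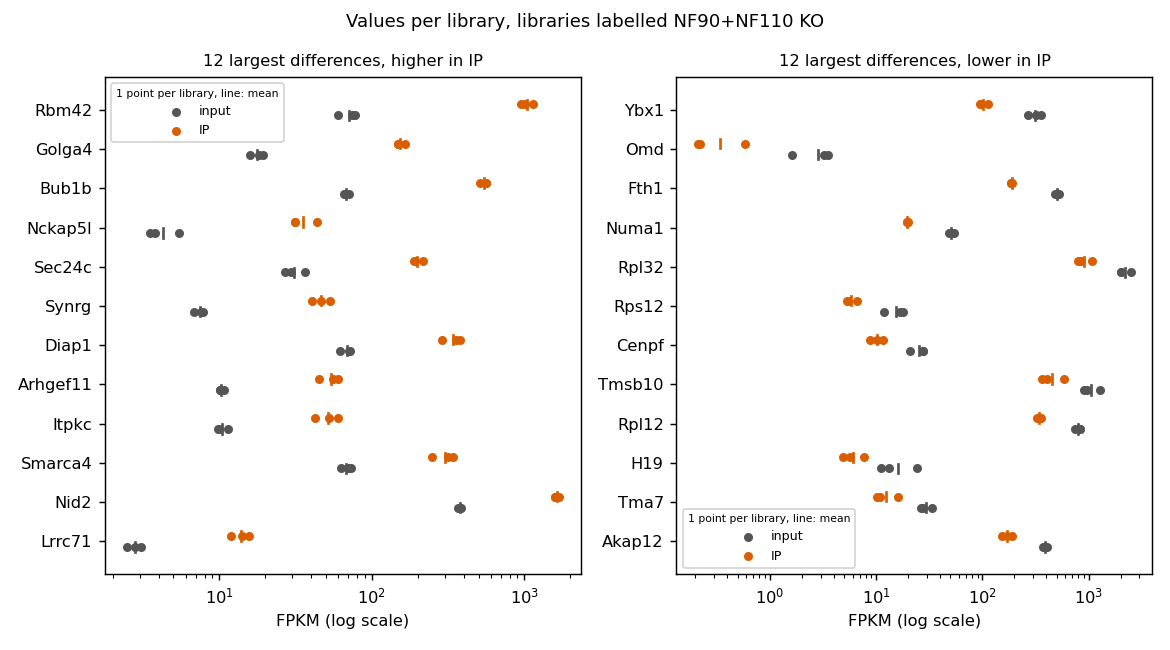
FPKM (log scale) of the 12 genes with the largest differences in each direction under the naming rule, with 1 point per library and a line at the mean, for the inputs and IPs labelled NF90+NF110 KO. The naming rule admitted only genes whose 3 IPs lay apart from the 3 inputs, so that separation was fixed by the choice. Rbm42, for example, was at 953 or more in the IPs and 77.5 or less in the inputs.

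Falls in the IP were shallower. Ybx1 (chromosome 4, 119277327 to 119296265), whose protein packages mRNA, had the deepest fall under the naming rule, from 317, 269 and 357 to 112, 97.5 and 95.1 FPKM (log2 difference -1.61, SE 0.08, limma adjusted p = 2.84e-08). Fth1, the ferritin heavy chain, fell from 507, 477 and 522 to 192, 186 and 186 (-1.41, limma adjusted p = 2.49e-09). Tmsb10, an actin-binding thymosin, fell from 910.3, 1270 and 966 to 404, 587 and 367 (-1.23, limma adjusted p = 1.58e-08). For each of them the highest IP lay below the lowest input, which the naming rule required.

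Short ribosomal protein mRNAs and a few long mRNAs were both among the 12 deepest falls. Rpl32 went from 2016, 2488 and 2013 to 789, 1083 and 839 FPKM (-1.27) and Rpl12 from 827, 739 and 836 to 346, 326 and 353 (-1.23). Tma7, named for its yeast counterpart that associates with ribosomes, went from 27.3, 26.6 and 33.9 to 16.03, 10.8 and 10.3 (-1.2). Of the long mRNAs, Numa1, a spindle pole protein, fell from 50.5, 48.8 and 53.6 to 19.8, 19.6 and 19.4 (-1.33, limma adjusted p = 8.72e-09), Cenpf, a kinetochore protein, from 27.7, 27.5 and 20.96 to 10.1, 11.6 and 8.81 (-1.24), and Akap12, a scaffold for protein kinase A, from 384, 408 and 373 to 170.2, 189.8 and 152 (-1.19). Mitotic genes were thus found at both ends, with Bub1b among the largest rises and Numa1 and Cenpf among the deepest falls.

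The remaining falls rest on less. H19, an imprinted noncoding RNA, went from 11.1, 24.1 and 13.2 to 4.84, 7.66 and 5.71 FPKM (-1.22, limma adjusted p = 1.49e-05), the inputs differing among themselves by more than 2-fold. Rps12, at -1.26 with only 320 reads over the 6 libraries, has near-identical copies in the genome and hosts small nucleolar RNAs, so its level is uncertain. Omd, at -1.48, lies within the span of Cenpp and drew 5 reads in all.

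The 5 RNAs with the highest mean FPKM in the IPs were also abundant in the inputs, but they were not the top 5 there. Rpl32, for example, had an input mean of 2172 FPKM, above Eef2 at 1922 and Hsp90ab1 at 1946. Rpl8, a protein of the large ribosomal subunit, was at 3188, 2774 and 3315 FPKM in inputs and 3888, 3527 and 3937 in IPs (log2 difference 0.29, limma adjusted p = 0.000315), and the histone gene Hist1h4d at 3555, 4001 and 3868 and 3209, 3961 and 3115 (-0.16, limma adjusted p = 0.0844, with near-identical copies). Rplp2, of the ribosomal stalk, fell from 4798, 4486 and 4803 to 2814, 2684 and 2591 (-0.80), Eef2, elongation factor 2, rose from 1917, 1813 and 2035 to 2485, 2307 and 2456 (0.33), and Hsp90ab1, a cytosolic chaperone, was at 1962, 1792 and 2086 and 2018, 1993 and 2180 (0.09, limma adjusted p = 0.102). Under quantile scaling Hist1h4d and Hsp90ab1 were called higher, at 0.27 and 0.38. The ribosomal RNA precursor Rn45s was at 1065, 914 and 1025 FPKM in inputs and 1072, 1048 and 1218 in IPs, which overlapped (0.15, limma adjusted p = 0.0399).

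Genes were also followed in 27 lists by function, read against the background of 23.4% higher and 21.1% lower over all genes tested and an overall median of 0.00. The lists were chosen with earlier results of these data known, so their counts are descriptions. Where a list's median turned sign between alternatives, this is said. Without the pairing of IP and input fewer genes were called in most lists. The background fell too, to 1308 higher and 1125 lower of the 12693 genes tested. In that fit 26 replication-dependent histone, 25 mitochondrial ribosomal protein, 9 proteasome and 4 endoplasmic reticulum folding genes were lower. In the same fit 6 pluripotency, 6 microRNA pathway, 10 translation factor and 8 mitosis genes were higher.

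In the ribosomal protein, respiratory chain and proteasome lists most called genes were lower. Of 86 cytosolic ribosomal protein genes, 57 were lower and 5 higher (median log2 difference -0.35); Rps27l went from 604, 468 and 572 to 278, 197 and 289 FPKM (-1.11) beside Rpl32 and Rpl12, while Rpl8 was among those higher. Of 76 mitochondrial ribosomal protein genes, 39 were lower and 2 higher (median -0.19), with Mrpl32 at 42.1, 33.3 and 38.2 and 22.1, 18.8 and 20.6 (-0.85) and Mrpl42 at 154, 148 and 151 and 92.8, 88.2 and 95.1 (-0.71). Of 74 nuclear-encoded respiratory chain genes, 57 were lower and 6 higher (median -0.34; 3 higher without NF90+NF110 KO experiment 2), including Ndufa3 of complex I, from 453, 386 and 426 to 210.2, 214 and 206 (-1.0), and Atp5e of the ATP synthase, from 337, 344 and 305 to 172, 205 and 176 (-0.83). Proteasome subunit genes were lower in 16 of 37 and higher in 3 (median -0.13), with Psmb3 at 134, 113 and 133 and 80.5, 85.1 and 91.96 (-0.55) and Psmc3, an ATPase of the regulatory particle, at 166, 144 and 169 and 217, 197 and 232 in the other direction (0.43). Without NF90+NF110 KO experiment 1, 10 of the 37 proteasome genes were called lower.

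Histone genes differed by class. Replication-dependent histone genes, which encode the short mRNAs without a poly(A) tail made in S phase, were lower in 44 of 61 and higher in 0 (median -0.31). At an unadjusted p under 0.05 limma gave 0 higher, as edgeR and DESeq2 did after adjustment, and over all alternatives 26 to 45 were lower and 0 to 6 higher. Hist1h2ah went from 278, 307 and 296 to 171, 226 and 194 FPKM and Hist1h2ac from 304, 286 and 298 to 181, 208 and 208 (-0.58 each). Many of these genes are near-identical, so reads can be split among them. Of the 11 replacement histone genes 3 were higher and 3 lower, and the median of -0.01 turned sign between alternatives. Without NF90+NF110 KO experiment 1 or 2, or without pairing, 0 of them were called higher. H3f3a, which encodes H3.3, was at 58, 42.5 and 61.3 in inputs and 46.7, 36.8 and 38.2 in IPs (-0.39), which overlapped. H1fx was at 57.2, 78.6 and 58.3 in inputs and 73.5, 109 and 56.3 in IPs (0.26). Its values overlapped too, and IP 3 lay below input 3.

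Most of the noncoding RNAs that were called were lower. Of 208 genes that RefSeq lists as long noncoding RNA, 69 were lower and 16 higher (median -0.22), against 2541 lower and 2928 higher of 11932 protein-coding genes (median 0.00). In the written list of long noncoding RNAs 8 of 10 were lower and 1 higher (median -0.42). Without NF90+NF110 KO experiment 3, and with DESeq2, 5 of the 10 were called lower, and without pairing 3. Malat1, a nuclear RNA of splicing speckles, went from 396, 402 and 324 to 162, 181 and 151 FPKM (-1.18, SE 0.07, limma adjusted p = 1.2e-07), with no overlap. Meg3, an imprinted RNA that hosts small nucleolar RNAs and microRNAs, went from 80.5, 88.5 and 79.4 to 61.7, 70.7 and 47.9 (-0.47). Of 9 small nucleolar RNA host transcripts 6 were lower and 0 higher (median -0.45, with 0 higher also by edgeR, by DESeq2 and at an unadjusted limma p under 0.05), among them Snhg6 from 221, 146 and 197 to 118, 87.5 and 115 (-0.80), Snhg12 from 128, 127 and 136 to 100, 75.2 and 86.9 (-0.58) and Dancr from 21.6, 17.4 and 23.4 to 17.03, 10.3 and 13.5 (-0.59). Xist, which coats the inactive X, was near the minimum in all 6 libraries, with 18 reads in all. Of 3 small noncoding RNA genes 1 was lower and 0 were higher by limma, also at an unadjusted p under 0.05, by edgeR and by DESeq2.

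In the chromatin, helicase, microRNA and pluripotency lists most called genes were higher. Of 30 chromatin remodeller and Polycomb genes 19 were higher and 4 lower (median 0.33). Beside Smarca4 these included the remodellers Chd8, from 31.1, 28.4 and 30.2 to 81.6, 74.2 and 84.3 FPKM (1.39), Ep400, from 26.5, 25.8 and 27.4 to 70.04, 60.96 and 65.6 (1.27), and Chd4, the ATPase of the NuRD complex, from 125, 135 and 124 to 217, 246 and 218 (0.82). In each the IPs lay above all inputs. Of 51 DEAD and DEAH box helicase genes 24 were higher and 2 lower (median 0.14), led by the spliceosomal Ddx23, from 50.1, 53.8 and 55.4 to 100.5, 120.5 and 110 (1.04), with Ddx46 (0.67), Ddx42 (0.65) and Ddx59 (0.70). Of 17 microRNA pathway genes 10 were higher and 3 lower (median 0.28), including Trim71, from 75, 65.3 and 76.7 to 134, 107 and 121 (0.73), Drosha, the nuclear processing enzyme, from 50.7, 58.4 and 52.2 to 74.2, 85.05 and 72.5 (0.51), Tnrc6c (0.58) and Mov10 (0.42). Of 30 pluripotency genes 15 were higher and 5 lower (median 0.16), with Klf5 from 110.2, 135 and 109 to 283, 324 and 203 (1.17), Sox2 from 194, 145 and 213 to 316, 245 and 296 (0.64), Tbx3 (0.41) and Trim28 (0.36).

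Some genes of the target's own network were higher in IP than in input in the libraries labelled NF90+NF110 KO, as in the other genotypes. Of 19 NF90 family members and partners 7 were higher, 1 was lower and 11 were not called. Their median was 0.12, against 0.21 in WT and 0.25 in NF110 KO. The paraspeckle protein genes Sfpq and Nono went from 209.6, 192 and 205 to 390.3, 403 and 329.7 FPKM (0.88) and from 92.95, 90.7 and 98.3 to 154, 156 and 149 (0.70). Adar, the RNA-editing deaminase, went from 15.1, 15.5 and 15.6 to 20.1, 22.1 and 20.04 (0.40), and Hnrnpl from 353, 354 and 376 to 475, 522 and 499 (0.47). Of 6 measured mRNAs that have been reported to bind NF90 in other systems, 3 were higher and 0 lower by limma (median 0.17). At an unadjusted p under 0.05 limma gave 4 higher and 0 lower, edgeR called 3 and 1, DESeq2 1 and 0, and over all alternatives 0 to 4 were higher. Among them were Dusp1, a phosphatase of MAP kinases, at 15.2, 9.67 and 17.03 and 17.4, 11.96 and 19.4 FPKM (0.21), and Mapt, which encodes tau, at 12.9, 15 and 13.2 and 15.3, 18.3 and 13.7 (0.18). For Dusp1 and Mapt the IP and input values overlapped, although each IP lay above its own input.

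Other lists were mixed. Translation factor genes were higher in 19 of 55 and lower in 14, led by Eif4g1, a scaffold of cap-dependent initiation, from 182, 173 and 184 to 392, 362 and 395 FPKM (1.09), and Eif3c (0.92), with Eif4g3 at 0.72 and Eef1e1 at -0.89; the sign of their median turned between alternatives. Among 36 hnRNP and SR protein genes 11 were higher and 6 lower (median 0.05), with Srsf10 (-0.58), Srsf11 (-0.55) and Pcbp2 (-0.45) lower. Of 351 C2H2 zinc finger genes 75 were higher and 57 lower (32 lower without NF90+NF110 KO experiment 1 and 30 without experiment 2), and the sign of the median, 0.02, turned; Zfp628 (0.91), Zfp319 (0.80), Zscan10 (0.71) and Zbtb3 (0.68) were highest. Of 29 mitosis and centrosome genes 13 were higher and 6 lower (median 0.06); Bub1 rose from 31.2, 36.7 and 30.4 to 74.6, 70.7 and 84.4 (1.2) like its paralog Bub1b. Of 16 basement membrane and matrix genes 5 were higher and 3 lower, with a median whose sign turned. There the heparan sulfate proteoglycan gene Hspg2 rose from 159.9, 152 and 137 to 394, 397 and 313 (1.29), and the neighbouring collagen IV genes went opposite ways, Col4a1 from 49.6, 54.7 and 52.1 to 25.6, 28.2 and 23.1 (-1.0) and Col4a2 from 34.1, 36.03 and 33.6 to 53.05, 61.4 and 48.7 (0.63).

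In the endoplasmic reticulum folding and cholesterol lists the share called lower was above the background of 21.1%, with medians near 0. Of 22 endoplasmic reticulum folding genes 10 were lower and 4 higher (median -0.09), with the chaperone genes Hsp90b1 (-0.39), Canx (-0.38) and Dnajb9 (-0.40) and the ubiquitin ligase gene Syvn1 (-0.27) lower. Of 20 glycolysis genes 5 were higher and 3 lower, the higher ones led by Pfkm (0.40), Hk2 (0.36), Hk1 (0.35) and Pfkl (0.34). Of 19 cholesterol synthesis genes 7 were lower and 3 higher, the lower ones led by Dhcr7 (-0.51), Insig1 (-0.50), Cyp51 (-0.37) and Fdft1 (-0.31). Without pairing 1 of these 19 genes was called lower and 0 higher, against 1125 lower of all 12693 tested in that fit. The medians of the glycolysis and cholesterol lists turned sign between alternatives. Of the 4 fibroblast, 1 primitive endoderm and 1 neural marker genes measured, 0 were called by limma, edgeR or DESeq2, and 1 had an unadjusted limma p under 0.05.

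**Figure D3:**
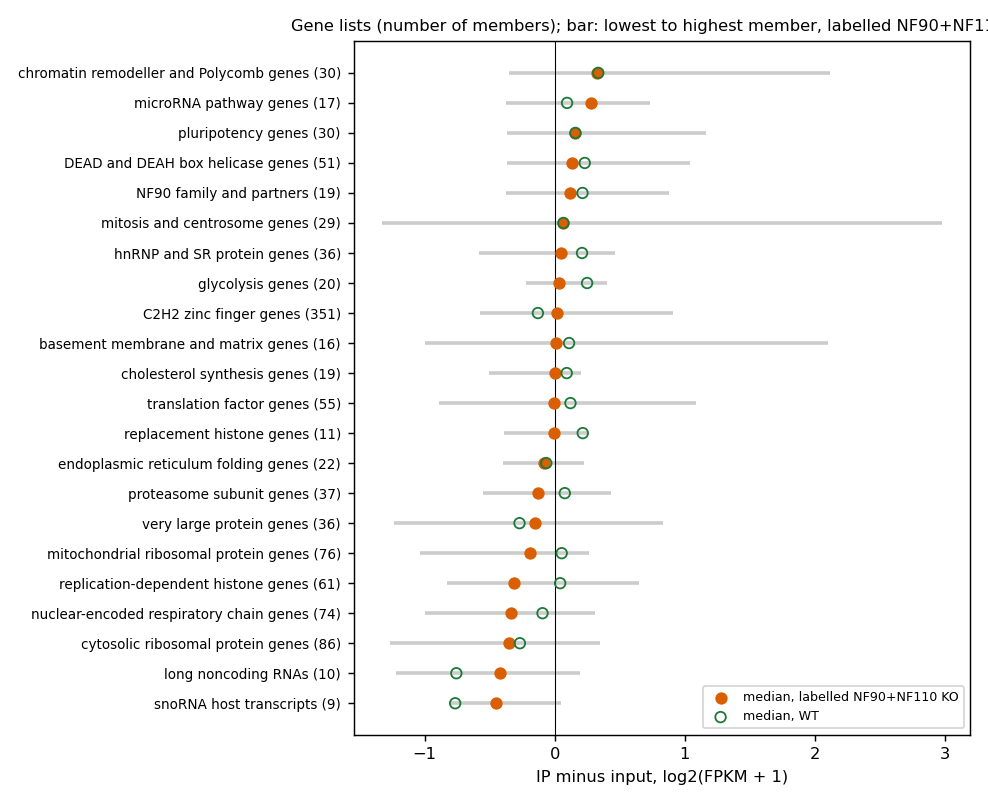
Median log2(FPKM + 1) difference of IP minus input for each gene list with 9 or more members, filled for the libraries labelled NF90+NF110 KO and open for WT; grey bars run from the lowest to the highest member in the former and the number of members is in brackets. Chromatin genes stand highest with a median of 0.33 and small nucleolar RNA hosts lowest at -0.45.

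Transcript length went with the difference. Since no transcript lengths were given, relative length was taken as normalised count per FPKM in the 6 WT and NF110 KO inputs, which are separate libraries, and divided by its median over the 12260 genes. A gene with few counted reads for its FPKM thus falls in a short class whatever its true length. Lrrc71, with 19 reads, and Omd, with 5, had relative lengths of 0.01 and 0.03 and were in the shortest class. Across genes it had a Spearman correlation of 0.313 with the log2 difference, as a description. The genes were put into 10 classes of 1226 by relative length. In the shortest 48.0% were lower and 4.16% higher (median -0.25). In the longest class 17.5% were lower and 37.5% higher (median 0.08). The WT medians of the same classes were -0.10 and -0.01. The median of the shortest class stayed between -0.33 and -0.24 and that of the longest between 0.06 and 0.10 under all alternatives run.

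The lists fall at different lengths. All 61 replication-dependent histone genes, 65 of 86 cytosolic ribosomal protein genes and 50 of 74 respiratory chain genes were in the shortest of the 10 classes, and 14 of 30 chromatin genes in the longest. Of the genes past 2-fold, 31 of the 58 higher were in the 2 longest classes. Of the 36 lower, 25 were in the 2 shortest, among them Omd with 5 reads. Length does not order all of them: 35 of 36 genes for very large proteins were in the longest class, yet 19 were lower and 6 higher (median -0.15), with 3 higher without NF90+NF110 KO experiment 1 or 3. Among these, Vps13c, a lipid transfer protein, went from 8.46, 10.3 and 8.52 to 4.99, 5.51 and 4.63 FPKM (-0.74) and Vps13b from 7.84, 8.71 and 7.63 to 4.72, 4.26 and 4.52 (-0.72), whereas Spen, a corepressor, went from 22.8, 22.7 and 24.5 to 42.8, 45.2 and 39.3 (0.83). Rbm42, the largest rise, was in length class 3. Whether length has a part in the lists' shifts was not tested. By chromosome, medians ran only from -0.06 on chromosome 13 to 0.06 on chromosome 15.

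**Figure D4:**
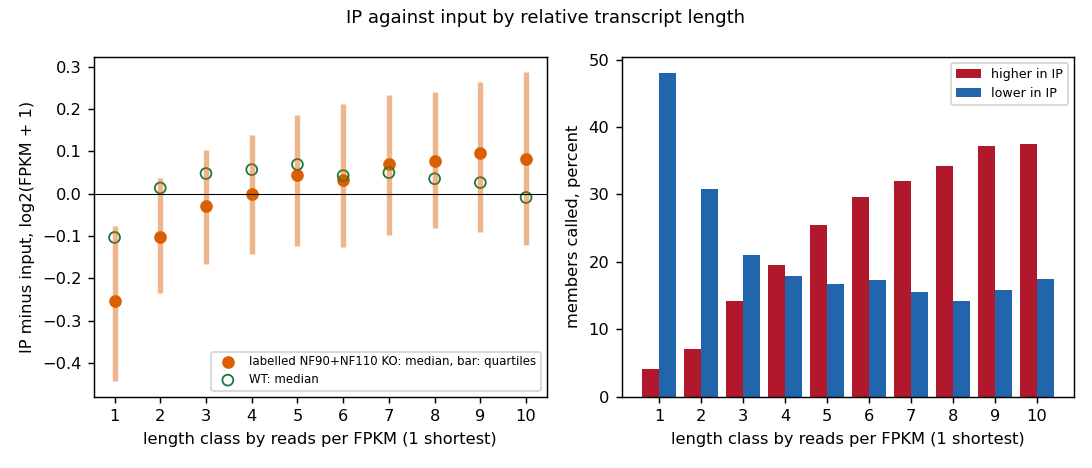
Genes in 10 classes by relative transcript length (1 shortest). The left panel gives the median log2(FPKM + 1) difference of IP minus input with bars from the lower to the upper quartile for the libraries labelled NF90+NF110 KO, and the WT median; the right panel gives the percentage called higher and lower in the former, from 48.0% lower in the shortest class to 37.5% higher in the longest.

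The same comparison in WT cells, where the target is present, shows how much of the IP pattern the control shares. The WT and NF90+NF110 KO comparisons share no library. In WT, limma called 28.9% of tested genes higher and 23.6% lower in the IP. All 58 genes past 2-fold higher in the libraries labelled NF90+NF110 KO were called higher in WT too, and 51 of them passed 2-fold there, which is 87.9% of the 58 and 87.9% of the 58 such genes in WT. Their median log2 difference was 1.28 in the former and 1.34 in WT. Of the 36 past 2-fold lower, 30 were called lower in WT and 21 passed 2-fold, 58.3% of the 36 and 31.3% of the 67 in WT. Over all 12260 genes the log2 differences of the genotypes had a Pearson r of 0.808, and 0.776 over the 12166 genes under 2-fold, each a description across genes.

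Gene by gene, the large differences were similar in size. Rbm42 had a log2 difference of 3.87 in the libraries labelled NF90+NF110 KO, 4.09 in WT and 3.29 in NF110 KO. Golga4 had 3.05, 3.04 and 2.83, Bub1b 2.98, 3.16 and 2.72, and Nid2 2.1, 2.13 and 1.71, in the same order. On the lower side Fth1 had -1.41, -1.26 and -1.39, and Numa1 -1.33, -1.23 and -1.48. The difference WT minus NF90+NF110 KO was 0.22 for Rbm42 (limma adjusted p = 0.53), -0.01 for Golga4 (0.977) and 0.15 for Fth1 (0.228). None of these passed the threshold, which does not show that they are equal.

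**Figure D5:**
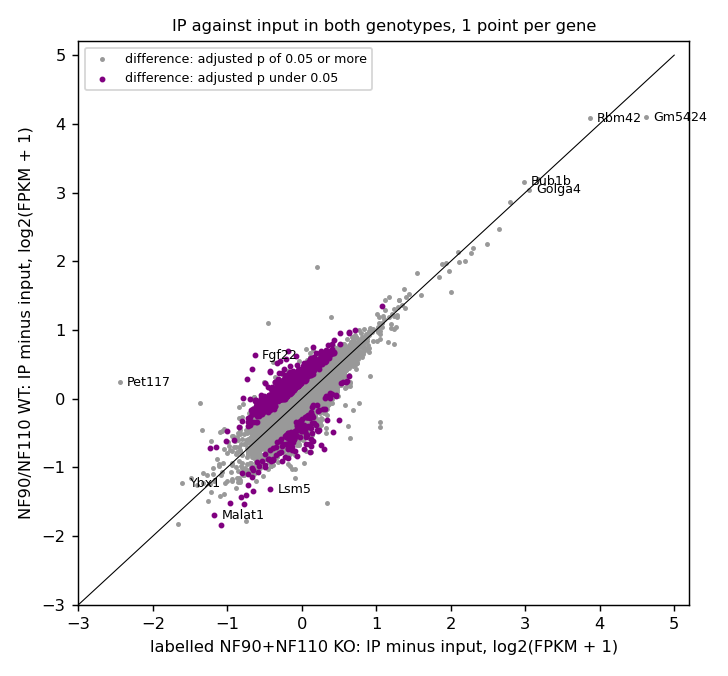
Log2(FPKM + 1) difference of IP minus input for each of the 12260 genes in the libraries labelled NF90+NF110 KO (horizontal) and in WT (vertical), with the line of equal values; purple points passed limma's test of the difference between the genotypes. Rbm42, at 3.87 and 4.09, and the other RNAs with large rises lie close to the line.

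Where WT differed from the control it was mostly by small steps. Tested directly in limma, the signed log2 difference of IP minus input was larger in WT for 583 of the 12260 genes and smaller for 150. These compare with 4.61% and 1.21% of genes tested, and the median size of the change among those called was 0.35. A less negative value counts here as larger and a more negative one as smaller. Under quantile scaling the split over all tested genes was 75 larger and 60 smaller in place of 585 and 154. Without that scaling, only 1 of the 58 genes past 2-fold higher was among the 583 larger, and 0 were among the 150 smaller. Replication-dependent histone genes were larger in WT in 34 of 61 (median 0.37), respiratory chain genes in 33 of 74 (0.26), mitochondrial ribosomal protein genes in 16 of 76 (0.21) and proteasome genes in 12 of 37 (0.21). Under quantile scaling these counts were 2, 4, 4 and 0. Median IP against input differences of these lists, in that order, were -0.31, -0.34, -0.19 and -0.13 in the libraries labelled NF90+NF110 KO. In WT they were 0.04, -0.09, 0.05 and 0.08. Small nucleolar RNA hosts were smaller in WT in 4 of 9 (-0.41), including Snhg6 and Dancr, and C2H2 zinc finger genes in 12 of 351 (-0.15). These counts were 2 and 4 under quantile scaling. The WT median of the small nucleolar RNA hosts was -0.77, more negative than the -0.45 in the libraries labelled NF90+NF110 KO.

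The counts of this difference depended on single experiments. Without WT experiment 1, 2 or 3 limma called 57, 13 and 360 genes, without NF90+NF110 KO experiment 1, 2 or 3 it called 13, 1176 and 49, and without NF110 KO experiment 2 it called 474, in place of 739. Without the pairing, or without the variance trend and robust moderation, it called 0 genes, where edgeR with the pairing called 1168 and DESeq2 720. At an unadjusted p under 0.05 these fits gave 965 and 2830 genes. Rn45s moved with genotype as well, at 1383, 1423 and 1651 FPKM in WT inputs and 2270, 2421 and 2790 in WT IPs (difference WT minus NF90+NF110 KO 0.59, limma adjusted p = 0.0095). Its part in the differences of other genes was not tested.

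Against NF110 KO, where NF90 should remain, the pattern was again shared. Of the 58 genes past 2-fold higher, 57 were called higher in NF110 KO and 33 passed 2-fold, with a median of 1.10. Of the 36 past 2-fold lower, 32 were called lower in NF110 KO and 21 passed 2-fold. Over all 12693 genes tested in NF110 KO, 2677 were called higher and 2155 lower. Past 2-fold there were 36 higher and 48 lower. By limma's test of NF110 KO minus NF90+NF110 KO, the signed difference was larger in NF110 KO for 761 of the 12260 genes and smaller for 490. Over all genes tested the shares were 6.00% and 3.91%, and 21 of the 58 were among the smaller. Under quantile scaling 464 tested genes were larger and 583 smaller, in place of 762 and 496. Without NF110 KO experiment 2 or 3 limma called 4 and 395 genes in place of 1258, and without NF90+NF110 KO experiment 1 or 2 it called 7 and 833.

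The authors' deposited table of their own comparison gave an adjusted p for 11481 genes in the libraries labelled NF90+NF110 KO. By those adjusted p-values 2664 genes were counted here as called, 1491 higher and 1173 lower. Of the 12260 genes, 2637 were called by the authors' deposited values and by limma in the same direction and 3 in opposite directions.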

How the data were processed

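RIP-seq was analysed from 18 libraries, 3 inputs and 3 IPs of each of 3 genotypes. Samples were grouped by the genotype and antibody in the labels. The authors deposited FPKM values and a second table of normalised counts (signal) for 22330 genes. Per the submitters' processing notes, the mm10 build, HTSeq 0.6.1, DESeq2, Cuffnorm, Cufflinks 2.2.1 and TopHat2 2.0.10 were used, in roles that those notes, as seen here, do not give. The authors' deposited table also holds log2 fold changes, their standard errors, a Wald statistic (score), p-values and adjusted p-values. Normalised counts divided by each library's smallest value came within 0.1 of whole numbers in 100% of nonzero cases, giving 9.53 to 19.0 M reads per library. Only these recovered reads carry depth. Inputs are total RNA and libraries were depleted of ribosomal RNA, per the labels' protocols.

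Testing covered the 12693 genes that reached 1 FPKM in 3 or more of the 18 libraries, on log2(FPKM + 1), a scale that understates fold changes of low genes, with limma 3.58.1 in R 4.3.3, using a variance trend and robust moderation. The model had 1 term per experiment, which pairs each IP with its input by the study's design, and an IP effect per genotype (6 residual degrees of freedom). As a check of the pairing, over genes and after group means were removed, each IP correlated best with its own input among the inputs of its genotype in 9 of 9 pairs, with r of 0.591, 0.835 and 0.554 in the libraries labelled NF90+NF110 KO. Tests were in either direction, adjusted by Benjamini-Hochberg over all genes tested, and called under 0.05. The script was tested on simulated data. Alternatives were other filters, a pseudocount of 0.1, quantile scaling, median centring, no pairing, only the libraries compared, no variance trend, each experiment left out, and edgeR 4.0.16 and DESeq2 1.42.0 on recovered reads. Genes with 0 reads have no value in the last 2.

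Named genes were the targeted gene (not reported here), Ilf2, Rn45s, the 5 most abundant in the IPs, the 12 largest differences in each direction without overlap of IPs and inputs (mean FPKM of at least 1, the same sign in 3 pairs, no predicted or clone-named genes), the 6 largest in each direction at mean FPKM of at least 50, up to 4 members of each list with 3 or more called genes, and the 6 largest differences between WT and NF90+NF110 KO in each direction. The members and lists were chosen with earlier results of these data known. A list of mitochondrially encoded genes had 0 genes in the table. Of the 12260 genes, 11641 matched a RefSeq symbol on GRCm38 and 12224 a symbol or synonym. The NF45 libraries were not used here.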

Additional observations from a re-analysis of the deposited data

Results flagged for a closer look

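For 28 of the named genes, limma's test of the difference in IP against input between WT and the libraries labelled NF90+NF110 KO passed the threshold. Over all 12693 genes tested, 739 passed. The genes given below with the largest positive and the largest negative values were named for the size of this difference. Their large values were thus fixed by the choice, and the count of 28 does not measure how often named genes differ. Each value is the log2 difference in WT minus that in the libraries labelled NF90+NF110 KO. The limma calls of this difference depended on single experiments, and 0 genes were called without the pairing.

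The largest positive values belonged to genes at low levels. Fgf22, a fibroblast growth factor gene, had 1.26 (adjusted p = 0.0379), with 3.15, 3.72 and 1.88 FPKM in the inputs and 2.07, 2.33 and 0.48 in the IPs labelled NF90+NF110 KO and 49 reads over those 6 libraries. Crygd, a lens crystallin gene, had 1.11 (adjusted p = 0.0115), and Phlda2, an imprinted growth regulator, 1.02 (0.0115). Prap1 had 0.88 on 40 reads, Rangrf 0.86 and Thrsp 0.83.

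The largest negative values were those of the zinc finger genes Zfp345 (-0.93, adjusted p = 0.0179), Zfp936 (-0.89) and Zfp942 (-0.77), of Lsm5, a subunit of the Lsm ring that binds U6 and decaying mRNA (-0.89, adjusted p = 0.0308), of Il18bp, which encodes a binding protein of interleukin 18 (-0.81), and of Inha, the inhibin alpha gene (-0.80). Lsm5 ran at 16.3, 23.6 and 19.3 FPKM in inputs and 11.7, 12.6 and 19.8 in IPs labelled NF90+NF110 KO, which overlapped.

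At higher levels, positive values were found for Rn45s (0.59), Col4a1 (0.53), Mrpl14 (0.51), Tmsb10 (0.50), H3f3a (0.49), Hist1h4d (0.46), Hist1h2be (0.46), Psmb3 (0.45), Psmb6 (0.41), Adar (0.39), Col4a2 (0.32) and Psmc3 (0.24). Negative values were found for Malat1 (-0.52, adjusted p = 0.016), Dancr (-0.48), Vps13b (-0.38) and Snhg6 (-0.28). Malat1, already lower in the IPs labelled NF90+NF110 KO at -1.18, stood at -1.7 in WT.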

How the results depend on the processing

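The count of genes called in IP against input of the libraries labelled NF90+NF110 KO, 5655, fell to 2433 with no replicate block, that is without pairing; under the other alternatives it was 4314 to 5851. The 95 genes past 2-fold became 166 with a pseudocount of 0.1 and 160 with edgeR, and 90 to 121 otherwise. The 739 genes whose difference from WT was called became 335 with the filter of FPKM above 0, 135 with quantile scaling, 1168 with edgeR, 0 without pairing and 0 without variance trend and robust moderation, and 13 to 1176 with 1 experiment left out. The 1258 genes that differed from NF110 KO became 508, 1047, 1949, 1 and 1 under the same alternatives, and 4 to 1427 with 1 experiment left out. The cause was not tested. Of 2637 values of named genes under alternatives, 2467 kept direction and side of the threshold, 163 lost the call, 6 gained it, and 1 turned, Hist1h4d at 0.27 (adjusted p = 0.000288) under quantile scaling, against -0.16. Without pairing the call was lost for 39 values. With 3 pairs per genotype and FPKM that carry no total RNA yield, only relative levels could be compared.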
